A study of Danio rerio with 18 samples.

Results

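The comparison set p53 mutant zebrafish embryos against wild type embryos that had received no radiation, so that it describes the transcripts that differ before any DNA damage is applied. It used 4 of the 18 libraries of the series, 2 from p53 -/- embryos and 2 from p53 +/+ embryos, all whole embryos at 30 h after fertilization. Levels are given as TPM, the length-corrected share of each transcript in a library, scaled to the same total in all. A difference is the mutant value minus the wild type value on the log2(TPM + 1) scale, taken between libraries of the same replicate number, because replicates 1 and 2 proved to be different kinds of library. Of 32057 genes listed for both genotypes, 17282 had at least 1 TPM in at least 2 of the 4 libraries and were tested. Other libraries of the series showed where the same genes stood elsewhere, gave a set of radiation-induced genes, and entered alternative fits. Those with values below were p53 mutant embryos collected 1 h and 3 h after X-rays, given at 5 Gy per min up to 30 Gy, and wild type embryos collected 3 h after them. The remaining ones came from a puma -/- noxa -/- p21 -/- triple mutant, called PNP, which keeps p53 and was taken untreated and 3 h after the same dose. The PNP libraries of 1 h and 2 h entered only the fits over all 18 libraries.

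The p53 protein is a transcription factor that is held at a low level in unstressed cells by the ubiquitin ligase Mdm2, whose gene is itself a p53 target. DNA damage releases p53 from this control, and it then activates genes that halt the cell cycle, such as the p21 gene cdkn1a, and genes that start cell death, such as puma and noxa. Zebrafish without p53 can develop into adults.

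Several limits hold for every value below. The labels do not name the p53 allele, the background of either line, or whether both libraries of a genotype came from 1 clutch. The p-values therefore cover only variation among these libraries, which may be technical. In the untreated comparison this is the disagreement between the replicate pairs, combined with the spread of other genes. Each genotype has its own deposited table, and the sequencing run of each library is not given, so genotype, table and run cannot be told apart. The labels' protocols name more than 1 sequencing centre, and a difference between centres was not tested. The depth of each library is unknown from TPM. In whole embryos, fewer cells of a type and less RNA per cell cannot be told apart.

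Replicate 1 and replicate 2 differed in the same way in both genotypes. The 5.8S ribosomal RNA was listed at 630.9 and 13.6 TPM in replicates 1 and 2 of the p53 mutant, and at 391.96 and 16.8 TPM in the wild type. In the 3 h libraries of both genotypes it was listed at 0. Transcripts encoded by mitochondrial DNA made up 1.67% and 5.21% of TPM in the mutant, and 2.66% and 8.06% in the wild type. Mutant and wild type libraries of the same number correlated across genes at r = 0.982 and 0.973, above the correlation of the 2 mutant libraries (0.961) and of the 2 wild type libraries (0.939). These correlations are across genes, which are not independent replicates.

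By size, 100 genes differed by at least 2-fold in both replicate pairs with the same sign, 34 higher and 66 lower in the p53 mutant, which are 0.197% and 0.382% of the genes tested (0.579% in all). A further 15 genes were past 2-fold in both pairs with opposite signs. Replicate 1 alone gave 307 genes past 2-fold and replicate 2 alone gave 542. Just inside the rule on the higher side the smaller of the 2 differences was 1.00, and just outside it was 0.98. On the lower side these were -1.02 and -0.99. In 94 of the 100 genes the libraries of the genotypes did not overlap. The rule selects for such a gap in the same libraries, so this count adds no separate support. Over all tested genes the libraries did not overlap in 19.3%, in 12.2% with the mutant above and in 7.07% with it below. The median difference over all tested genes was 0.05 in replicate 1 and -0.02 in replicate 2, and the correlation of the 2 differences across genes was 0.183.

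**Figure D1:**
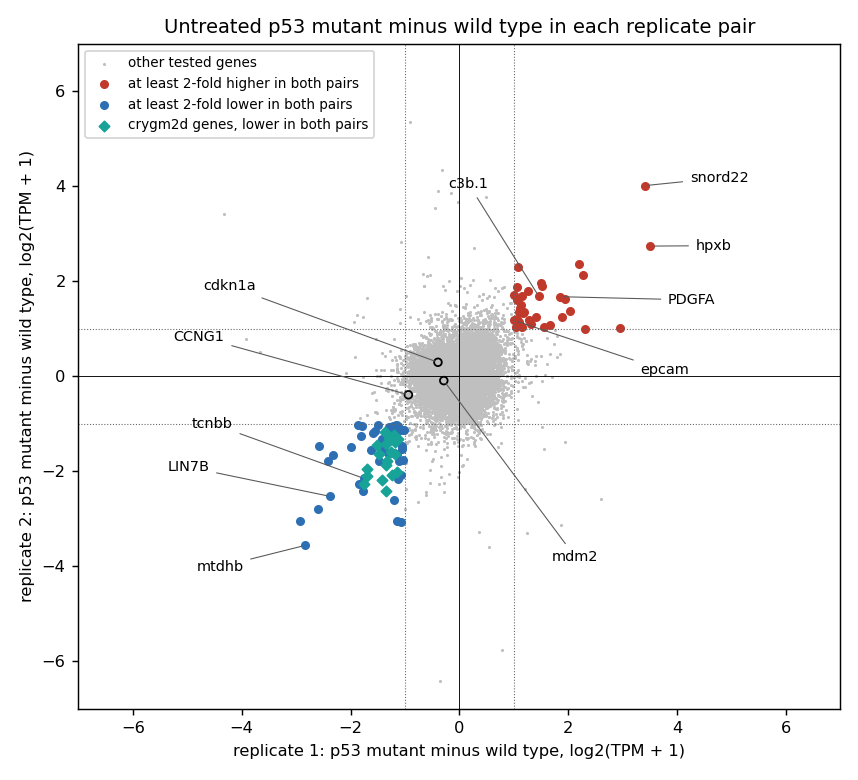
Difference between p53 mutant and wild type (log2(TPM + 1)) in replicate 1 (horizontal axis) and replicate 2 (vertical axis), 1 point per tested gene, with dotted lines at 2-fold. Of the coloured genes 34 lie at the upper right and 66 at the lower left, 20 of them crygm2d genes, while mdm2, cdkn1a and CCNG1 (open circles) lie inside the dotted lines.

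The test called more genes than the size rule. With the replicate number as a block, limma called 257 genes at an adjusted p under 0.05 (1.49% of those tested), 116 higher (0.671%) and 141 lower (0.816%). All 100 genes of the size rule were among them, and both rules use the same libraries. Without the block it called 0 genes, and 234 had an unadjusted p under 0.05, against 1609 with the block. The blocked model has 1 residual degree of freedom and borrows 23.35 from the other genes, so most genes have a similar SE, and the smallest called difference was 0.89. A call can therefore rest on 1 pair. The largest called fall was that of the cardiac actin gene actc1c, with 0.61 and 1.3 TPM in the mutant against 1.05 and 195 TPM in the wild type. Of the 257 genes, 25 had libraries that overlapped. The words rose and fell below refer to calls of the blocked model.

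Of 61 listed p53 pathway targets 51 were tested and 0 were called by limma with the block, where 1.49% of all tested genes were. Of the 51, 0 were past 2-fold in both pairs, where 0.579% of all tested genes were. Both counts of 0 are near these shares for a list of this size. The median difference was -0.04, beside -0.00 over all genes. The median was -0.09 in replicate 1 and 0.04 in replicate 2. Of the targets 16 lay above 0 in both pairs and 16 below it, beside 27.7% and 24.3% of all tested genes.

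The feedback inhibitor gene mdm2 (ENSDARG00000033443) had 25.9 and 52.2 TPM in the p53 mutant, against 31.8 and 55.6 TPM in the wild type. The libraries of the genotypes overlapped, and in each the replicate 2 value was the higher one. The difference was -0.19 (SE 0.227, 95% interval -0.66 to 0.28, limma adjusted p = 0.939). The related inhibitor gene MDM4 had a difference of -0.04, with an interval of -0.52 to 0.43.

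The p21 gene cdkn1a, an inhibitor of cyclin-dependent kinases, had 3.14 and 8.78 TPM in the mutant, against 4.44 and 6.96 TPM in the wild type. Both wild type libraries lay between the mutant ones, and the difference was -0.05 (95% interval -0.54 to 0.44). At 3 h after radiation the levels of cdkn1a were 2.14 and 2.44 TPM in the mutant and 361 and 306 TPM in the wild type.

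The death genes were low. The puma gene bbc3 stood at 0.40 and 0.67 TPM in the mutant, against 0.80 and 1.15 TPM in the wild type, and did not pass the filter on low values. The noxa gene pmaip1 had 4.2 and 6.28 TPM in the mutant and 4.75 and 3.00 TPM in the wild type. Its difference was 0.36 (95% interval -0.16 to 0.88), negative in replicate 1 and positive in replicate 2. The pore-forming death gene BAX differed by -0.08 (95% interval -0.54 to 0.39).

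The lowest difference among the targets was that of the cyclin G1 gene CCNG1 (ENSDARG00000076667), which the title of the series names. It had 258 and 253 TPM in the p53 mutant, against 495 and 331 TPM in the wild type. Both mutant libraries lay below both wild type libraries, with differences of -0.94 and -0.39. The mean of -0.66 (SE 0.249, 95% interval -1.18 to -0.15) missed the threshold (limma adjusted p = 0.300). Its limma adjusted p ranged from 0.0382 to 1.00 over the alternatives. The lowest, and the only one under 0.05, came from a fit over all 18 libraries in which the block covered 6 of them. Untreated PNP embryos had 730 and 927 TPM of CCNG1.

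The other genes of that title differed less. The transcription factor gene foxo3b had 5.31 and 9.35 TPM in the mutant, against 6.32 and 14.2 TPM in the wild type, with a difference of -0.38 (95% interval -0.86 to 0.09). FBXW7, which encodes the substrate-binding part of a ubiquitin ligase, had 18.4 and 26.5 TPM in the mutant and 18.5 and 26.5 TPM in the wild type. Its difference was -0.01 (95% interval -0.47 to 0.46). The p53 relatives TP63 and TP73 had differences of -0.38 (95% interval -0.87 to 0.10) and -0.21 (-0.69 to 0.27). The intervals of mdm2, cdkn1a, MDM4, BAX, foxo3b, FBXW7, TP63, TP73 and pmaip1 all lie within 1 unit of 0 on the log2(TPM + 1) scale. They rest on the spread that the blocked model borrows from other genes. The added 1 TPM also shrinks the differences of low genes. For TP73 the difference was -0.42 with a pseudocount of 0.1 TPM.

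Genes that respond to radiation where p53 is present can be taken from the PNP libraries, which the untreated comparison did not use. There limma called 1620 of 16286 genes higher (9.95%) and 1006 lower (6.18%) at 3 h. With median-of-ratios scaling the split was 941 higher and 1396 lower, so the set of genes called higher depends on the scaling. The shares below use the 1620 genes and were not computed for the other set. Of these 1620 genes, 1564 were tested in the untreated comparison. Their median untreated difference was 0.06, and 14.3% lay below 0 in both pairs and 35.2% above it, beside 24.3% and 27.7% of all tested genes. Of these genes 120 had risen at least 2-fold in PNP embryos, and their values leaned the other way. The median untreated difference of the 120 was -0.07, with -0.05 in replicate 1 and -0.03 in replicate 2. Of the 120, 40 lay below 0 in both pairs (33.3%, beside 24.3% of all tested genes) and 29 lay above it.

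The untreated comparison called 4 of these 120 genes lower in the p53 mutant and 0 higher, beside 0.816% and 0.671% of all tested genes. Values of 3 of the 4 are given here. The immunophilin-type gene fkbp16 had 1.15 and 0.77 TPM in the mutant, against 3.86 and 1.88 TPM in the wild type. The retinal transcription factor gene atoh7 had 9.32 and 3.70 TPM in the mutant, against 14.7 and 24.3 TPM in the wild type. ENSDARG00000098925, which has no symbol, had 2.57 and 3.31 TPM in the mutant, against 3.36 and 22.5 TPM in the wild type. None of these 3 was past 2-fold in both pairs. The differences in replicates 1 and 2 were -1.18 and -0.70 for fkbp16 and -0.61 and -2.43 for atoh7. They were -0.29 and -2.44 for ENSDARG00000098925. Untreated PNP embryos, which keep p53, had 2.74 and 2.27 TPM of atoh7 and 1.07 and 0.73 TPM of ENSDARG00000098925. For both genes these values lay below both p53 mutant libraries. For fkbp16 the PNP embryos had 6.52 and 5.73 TPM, above both wild type libraries.

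**Figure D2:**
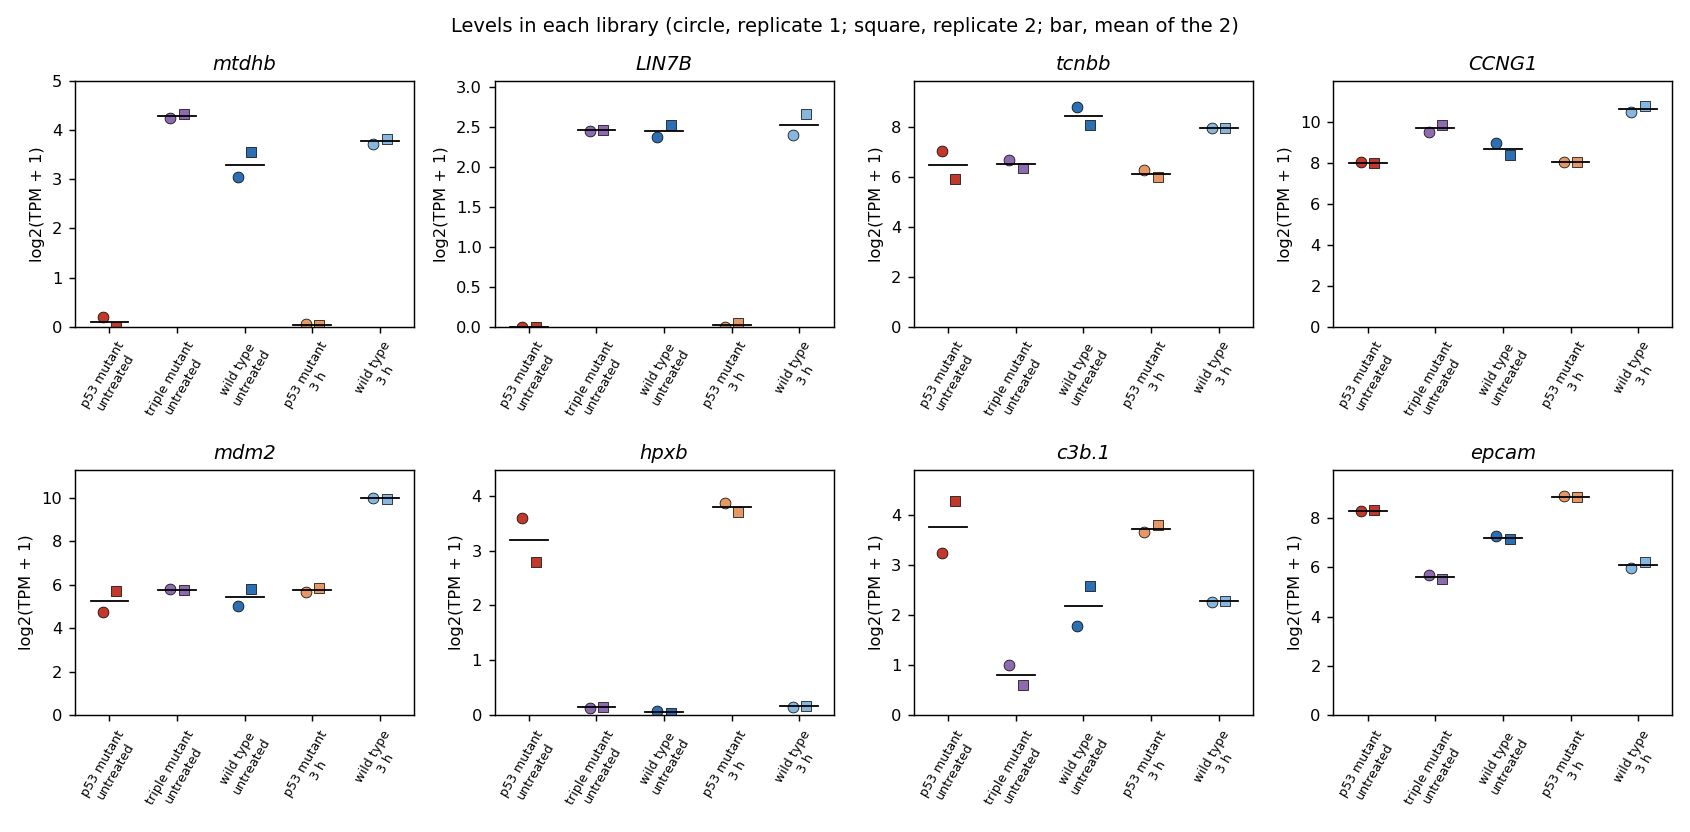
Level of 8 genes (log2(TPM + 1)) in untreated p53 mutant, PNP triple mutant and wild type embryos and in p53 mutant and wild type embryos 3 h after radiation; circles are replicate 1, squares replicate 2 and bars their mean. mtdhb, LIN7B and tcnbb are lower in the p53 mutant than in the wild type at both times, CCNG1 and mdm2 are high in the irradiated wild type, and hpxb, c3b.1 and epcam are highest in the p53 mutant libraries.

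Several of the larger falls were those of genes that were nearly or wholly undetected in the p53 mutant. The gene mtdhb (ENSDARG00000004939), a relative of human MTDH, which encodes the membrane protein metadherin, was listed at 0.15 and 0 TPM in the mutant, against 7.24 and 10.8 TPM in the wild type. Its difference was -3.20 (SE 0.241, limma adjusted p = 7.61e-09). It was near 0 in all 6 mutant libraries, at 0 and 0.04 TPM at 1 h and at 0.04 and 0.02 TPM at 3 h after radiation. The untreated PNP embryos had 18.0 and 19.2 TPM.

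LIN7B (ENSDARG00000037932), which encodes a scaffold protein of cell junctions, was listed at 0 in both mutant libraries and at 4.2 and 4.76 TPM in the wild type. It stood at 0 and 0.03 TPM in the mutant at 3 h, against 4.28 and 5.35 TPM in the wild type. Its untreated PNP level was 4.48 and 4.53 TPM, close to the wild type one.

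An unnamed gene, ENSDARG00000103849, chosen after its values were seen because the rule for named genes needs a symbol, had 5.70 and 5.28 TPM in the mutant, against 49.9 and 50.6 TPM in the wild type. Its difference was -2.98 (SE 0.226, limma adjusted p = 7.61e-09), and the libraries of the genotypes did not overlap. At 3 h it had 5.11 and 6.22 TPM in the mutant and 74.5 and 91.6 TPM in the wild type. Among genes with clone-based symbols, si:dkey-48g21.7 had 0.07 and 0 TPM in the mutant against 2.84 and 3.80 TPM, and si:rp71-77l1.1 had 2.33 and 1.34 TPM against 16.8 and 7.10 TPM. The genes si:ch211-213i16.2, si:dkey-201g16.3 and CLEC3B (ENSDARG00000076541) were also listed at 0 in both mutant libraries, with at most 2.64 TPM in the wild type.

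Other falls were in genes that kept a measurable level in the mutant. The gene tcnbb, which encodes a carrier of vitamin B12, had 129 and 59.7 TPM in the mutant, against 441 and 268 TPM in the wild type. The membrane protein gene tmem176l.3a had 1.68 and 2.95 TPM in the mutant, against 12.4 and 11.4 TPM in the wild type. The differences were -1.95 for tcnbb and -1.99 for tmem176l.3a, and the libraries of the genotypes did not overlap for either gene. For tcnbb, untreated PNP embryos had 100 and 81.4 TPM, in the range of the p53 mutant.

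The metal-binding protein gene MT1X, a metallothionein outside the rule for named genes and chosen after its values were seen, had 17.2 and 15.3 TPM in the mutant, against 46.6 and 46.9 TPM in the wild type. At 3 h the gap was wider, with 5.52 and 8.68 TPM in the mutant and 94.5 and 126 TPM in the wild type. The other named falls were si:ch211-209m20.7, si:dkey-222f2.3 and si:dkeyp-21h4.3, with differences of -2.03, -1.75 and -1.90. The last of these was listed at 0 in the untreated PNP libraries and in the 3 h libraries of both genotypes. The collagen gene col17a1a of the epidermis list had a difference of -1.08, and NDRG1 (ENSDARG00000010420), a stress-responsive gene of the hypoxia list, had the same difference.

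Lens genes formed the list with the most called members. Crystallins are the structural proteins that make the lens transparent, and crygm2d is a family of gamma crystallin genes with many similar copies. Of 43 listed lens genes 31 were tested, and 15 were called lower, 0 higher and 16 not called. All of the 15 except CRYAA, cryba1l2 and BFSP1 were crygm2d copies, so the count rests mostly on that family. The median difference was -0.92, with -0.73 in replicate 1 and -1.20 in replicate 2. Of the 31 genes 29 lay below 0 in both pairs, beside 24.3% of all tested genes. The share of all tested genes called lower was 0.816%.

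All 20 tested members of the crygm2d family, of 21 in the tables, were called lower and were past 2-fold in both pairs. Summed over the family, the level was 1197 and 613 TPM in the p53 mutant, against 2978 and 2130 TPM in the wild type. In replicate 1 and in replicate 2 the mutant sum was the lower one, and both mutant sums lay below both wild type sums. The sequences of the copies were not compared here. If they are similar enough, the counting could split reads between them, so the level of a single copy is uncertain. Their 20 calls are not counted as 20 separate results for the same reason.

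Within the family crygm2d9 had 33.8 and 16.9 TPM in the mutant, against 116 and 84.3 TPM in the wild type, a difference of -2.0 (SE 0.233, limma adjusted p = 1.10e-05). The copy crygm2d15 had 4.28 and 2.55 TPM in the mutant, against 16.1 and 14.2 TPM in the wild type. The copies crygm2d2, crygm2d5, crygm2d14 and crygm2d7 fell by 1.89, 1.83, 1.80 and 1.38. The libraries overlapped for 1 copy of the family, crygm2d1, with 54.0 and 23.2 TPM in the mutant and 140 and 53.3 TPM in the wild type.

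**Figure D3:**
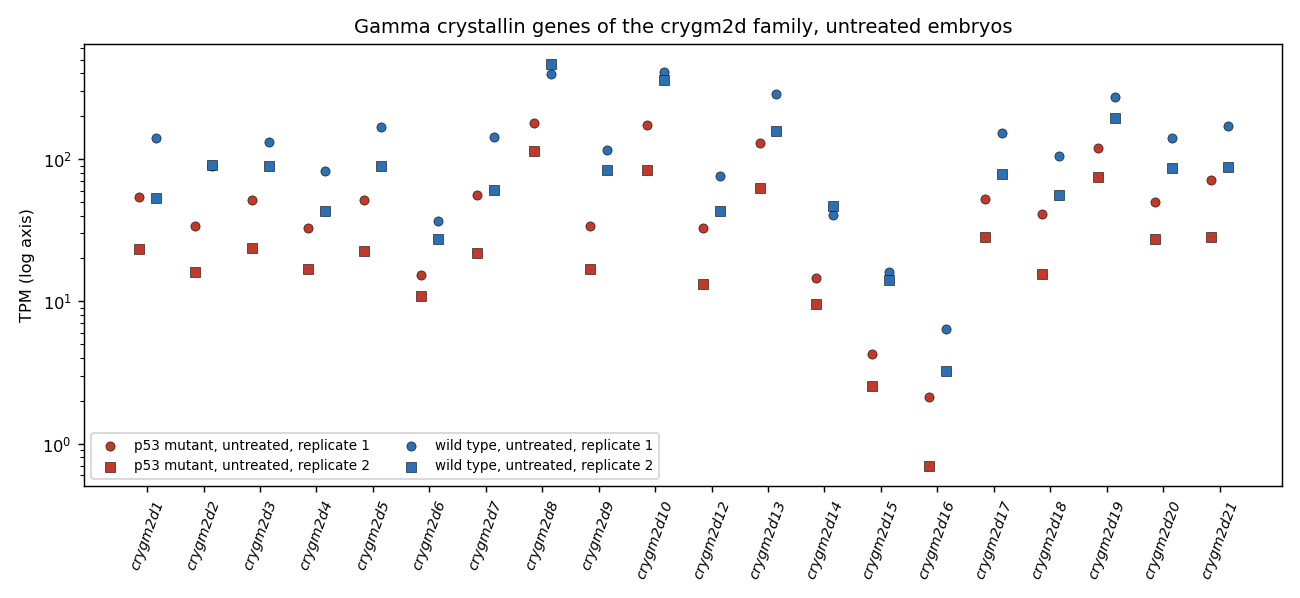
Level of the 20 tested crygm2d genes (TPM, log axis) in the 2 untreated p53 mutant libraries (red, left of each tick) and the 2 untreated wild type libraries (blue, right); circles are replicate 1 and squares replicate 2. In each replicate the mutant point lies below the wild type point for all 20 genes.

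Lens genes outside the family had fewer calls, and the difference between the families was not tested. Of 19 tested crystallins of other families 2 were called lower, CRYAA and cryba1l2. Of the 19, 15 lay below 0 in both pairs, beside 24.3% of all tested genes. The small heat shock crystallin gene CRYAA had 1.79 and 1.09 TPM in the mutant, against 5.93 and 5.41 TPM in the wild type. The lens filament gene BFSP1 had 4.11 and 6.65 TPM in the mutant, against 8.50 and 16.6 TPM in the wild type, and the lens water channel gene MIP (ENSDARG00000013963), which is not on the list, had 39.3 and 22.5 TPM against 59.5 and 62.2 TPM. BFSP1 and MIP differed by -1.05 and -1.01, with limma adjusted p = 0.0150 and 0.0320.

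The level of the crygm2d family also differed between other libraries. Its sum was 877 and 712 TPM in untreated PNP embryos, which keep p53, and this is in the range of the p53 mutant. At 3 h after radiation it was 513 and 420 TPM in the p53 mutant and 1282 and 1214 TPM in the wild type. The labels give 30 h after fertilization for every sample, and a difference in age at collection was not tested.

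On the higher side, the largest rise was that of snord22, a small nucleolar RNA, at 9.58 and 15.19 TPM in the p53 mutant and listed at 0 in both wild type libraries. It was 14.6 and 0 TPM in the mutant at 1 h after radiation, and 0 in the 3 h libraries of both genotypes and in untreated PNP embryos. Small nucleolar RNAs lack a poly(A) tail, and the labels give poly(A) selection for the libraries. The clone-named genes si:dkey-75l11.2, si:dkey-234l24.9p and si:dkey-16c7.4 were listed at 0 in both wild type libraries too, with 1.08 to 2.92 TPM in the mutant.

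The haem-binding plasma protein gene hpxb (ENSDARG00000051912), one of the hemopexin genes, had 11.08 and 5.90 TPM in the mutant, against 0.06 and 0.03 TPM in the wild type. The difference was 3.13 (SE 0.243, limma adjusted p = 9.87e-09). It kept this pattern in separate libraries, with 13.7 and 12.1 TPM in the mutant and 0.11 and 0.13 TPM in the wild type at 3 h. Untreated PNP embryos had 0.10 and 0.11 TPM, at the wild type level.

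The complement component gene c3b.1 had 8.43 and 18.4 TPM in the mutant, against 2.43 and 5.03 TPM in the wild type, a difference of 1.57 (SE 0.229, limma adjusted p = 0.00022). The complement inhibitor gene serping1 had 9.10 and 12.8 TPM in the mutant, against 3.20 and 2.95 TPM in the wild type. The groups did not overlap for either gene.

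The list of hatching gland, yolk and liver genes, which holds other plasma proteins, had 27 tested members and 0 called. Its median difference was 0.39, with 0.33 in replicate 1 and 0.40 in replicate 2, and 19 of the 27 lay above 0 in both pairs, beside 27.7% of all tested genes. Differences ran from -0.43 for he1.1, which lay below 0 in both pairs, to 0.97 for he1.3, whose pairs differed in sign. The means of he1.2 and ctslb were below 0 too. Among the plasma proteins, and outside the rule for named genes, the fibrinogen gene FGB had 114 and 134 TPM in the mutant. Its wild type levels were 83.7 and 117 TPM, which overlapped with those of the mutant. The lipoprotein gene apoa1a had 8043 and 7602 TPM in the mutant, against 6092 and 6148 TPM in the wild type. At 3 h after radiation the median difference of this list was -0.0036, beside -0.06 over all tested genes.

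The growth factor gene PDGFA (ENSDARG00000109371) had 12.1 and 9.50 TPM in the mutant, against 2.66 and 2.28 TPM in the wild type, a difference of 1.76 (SE 0.229, limma adjusted p = 5.17e-05). A second gene with that symbol (ENSDARG00000110069) moved the other way, with 7.4 and 8.13 TPM in the mutant, against 15.18 and 15.5 TPM in the wild type. Its difference was -0.90 (limma adjusted p = 0.0406). The libraries of the genotypes did not overlap for either gene, and both directions were called at 3 h as well.

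The adhesion gene epcam (ENSDARG00000040534), expressed in epithelia, had 309 and 317 TPM in the mutant, against 154 and 139 TPM in the wild type. The difference was 1.09 (SE 0.239, limma adjusted p = 0.0151), and it was 2.76 at 3 h, with 471 and 458 TPM in the mutant and 62.2 and 73.6 TPM in the wild type. Untreated PNP embryos had 50.6 and 44.6 TPM, below both other genotypes. Of 39 tested epidermis and keratin genes only epcam was called higher and only col17a1a lower, beside 1.49% of all tested genes called, and the median of that list was -0.60 in replicate 1 and 0.15 in replicate 2.

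Further named rises covered several functions. The gene bnip4, a relative of mitochondrial death and mitophagy genes, had 16.5 and 18.7 TPM in the mutant, against 5.54 and 7.23 TPM in the wild type. The lysosomal protease gene ctss2.1 had 111 and 235 TPM in the mutant, against 52.3 and 46.6 TPM in the wild type. The junction adaptor gene AJUBA had 10.4 and 11.6 TPM in the mutant, against 4.12 and 2.86 TPM in the wild type. The mutant libraries were the higher ones for all 3 genes, with differences of 1.34, 1.69 and 1.43.

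The histone variant gene h2ax, whose protein is phosphorylated at DNA breaks, was the 1 called gene of 64 tested DNA repair genes, a share near the 1.49% of all tested genes. It had 48.7 and 31.3 TPM in the mutant, against 33.9 and 9.34 TPM in the wild type. Its libraries overlapped between the genotypes, although the mutant was higher within each pair, and the difference was 1.08 (limma adjusted p = 0.0269). The call was lost with a pseudocount of 0.1 TPM (0.0683), median-of-ratios scaling (adjusted p = 0.111) and quantile normalization (0.0751). Of the 64 repair genes 31 lay above 0 in both pairs and 7 below it, beside 27.7% and 24.3% of all tested genes. The median of the repair list was 0.27 in replicate 1 and 0.05 in replicate 2. The nucleotide synthesis genes CAD and GART, chosen after their values were seen, had differences of 0.93 and 1.00. For CAD the mutant had 117 and 140 TPM and the wild type 62.3 and 71.2 TPM. Neither gene was called at 3 h.

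The remaining named rises were in genes without a clear name. They were si:ch211-102c2.4, si:rp71-62i8.2, si:dkey-35h6.1, si:dkey-84h14.3, nfr, si:dkey-248g17.3, si:dkey-208m12.2 and si:dkey-261m9.17, with differences of 1.24 to 1.98. For si:ch211-102c2.4 the mutant had 15.7 and 18.2 TPM and the wild type 3.34 and 5.24 TPM, while untreated PNP embryos had 13.7 and 14.8 TPM. Of the 34 genes past 2-fold on the higher side 18 had a mean below 5 TPM over the 4 libraries, as did 30 of the 66 on the lower side.

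Some broad lists shifted slightly in the same direction in both pairs with 0 members called. The DNA replication list had a median of 0.30, with 0.38 in replicate 1 and 0.18 in replicate 2. Of its 60 tested members 44 lay above 0 in both pairs, beside 27.7% of all tested genes. Differences within the list ran from -0.44 to 0.92, and the genes given here are outside the rule for named genes. The helicase gene MCM7, near the top of that range, had 252 and 298 TPM in the mutant. Its wild type levels were 165 and 127 TPM (limma adjusted p = 0.0614). The sliding clamp gene PCNA had 748 and 742 TPM in the mutant and 574 and 558 TPM in the wild type. Both genes were higher in every mutant library, and neither passed the test. At 3 h after radiation the median difference of the DNA replication list was 0.51. There limma called 31 of the 60 members higher, beside 4.41% of all tested genes.

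Cytosolic ribosomal protein genes had a median of 0.28, and 64 of 79 lay above 0 in both pairs. Nuclear genes of oxidative phosphorylation had a median of 0.19, with 49 of 77 above 0 in both pairs. Proteasome genes had a median of 0.16, with 24 of 42 above 0 in both pairs. The share of all tested genes above 0 in both pairs was 27.7%. Of the ribosomal genes rps20 stood apart, at 1740 and 1098 TPM in the mutant and 21943 and 769 TPM in the wild type. At 3 h after radiation the median was 0.14 for the ribosomal list and 0.09 for the proteasome list. For the oxidative phosphorylation list it was -0.06, the same as over all tested genes.

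The transcripts of mitochondrial DNA went the other way. Of 13 tested genes 12 lay below 0 in both pairs, beside 24.3% of all tested genes. The median was -0.69, and 1 was called, mt-nd4l (limma adjusted p = 0.0455). That call was lost with a pseudocount of 0.1 TPM (0.0769), median-of-ratios scaling (adjusted p = 0.149) and quantile normalization (0.0657). It had 656 and 4767 TPM in the mutant, against 1336 and 10460 TPM in the wild type. The replicate 2 libraries were the higher ones in both genotypes, so the level differed more between replicate numbers than between genotypes. At 3 h these transcripts made up 4.5% and 4.75% of TPM in the mutant and 3.84% and 2.48% in the wild type.

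**Figure D4:**
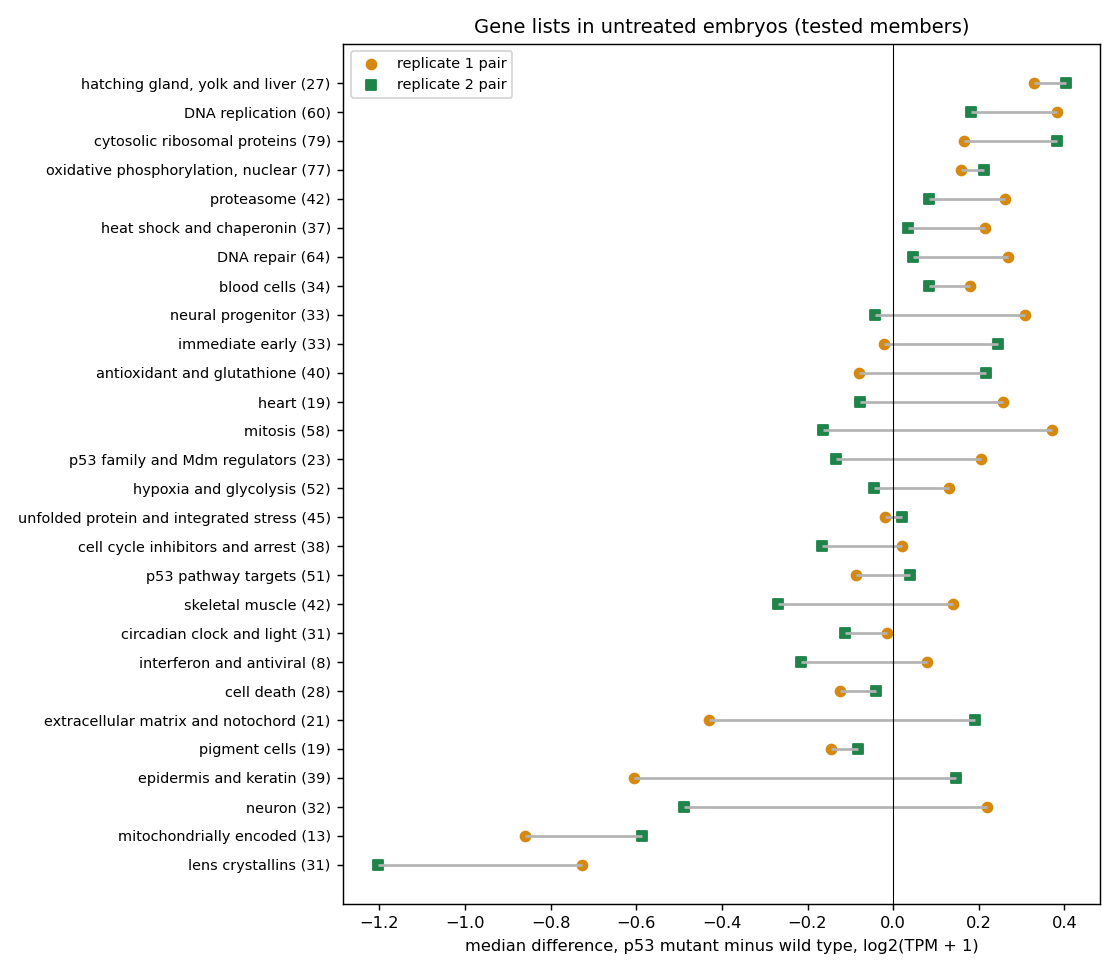
Median difference between p53 mutant and wild type (log2(TPM + 1)) of each gene list in the replicate 1 pair (circles) and the replicate 2 pair (squares), with the number of tested members in brackets. The lens crystallin list (-0.73 and -1.20) and the mitochondrially encoded list lie lowest in both pairs, while mitosis, neuron and epidermis lists lie on opposite sides of 0.

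Several of the other lists had medians that differed in sign between the pairs. The mitosis list had a median of 0.37 in replicate 1 and -0.16 in replicate 2, the neuron list 0.22 and -0.49, the skeletal muscle list 0.14 and -0.27, and the extracellular matrix list -0.43 and 0.19. Each of these lists had 0 called members. The cell death list had a median of -0.08, with -0.12 in replicate 1 and -0.04 in replicate 2, and 0 of 28 called. Of the 28, 13 lay below 0 in both pairs and 5 above it, beside 24.3% and 27.7% of all tested genes. The list of cell cycle inhibitors had a median of -0.04, with 0 of 38 called. The lists of heat shock, unfolded protein, immediate early, antioxidant, interferon, circadian, blood, heart, neural progenitor and pigment cell genes had medians between -0.15 and 0.15 and 0 called. Among these the heat shock and blood lists had medians above 0 in both pairs, and the circadian and pigment cell lists below 0. The others differed in sign. In the hypoxia list 1 of 52 tested genes was called, NDRG1, which is near the 1.49% of all tested genes. Its call too was lost with a pseudocount of 0.1 TPM (limma adjusted p = 0.0626), median-of-ratios scaling (0.0820) and quantile normalization (0.0528).

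The libraries at 3 h after radiation hold the same genotypes and tables but no library of the untreated comparison. Of the 34 genes past 2-fold higher in the untreated mutant, 14 (41.2%) were past 2-fold higher in both pairs at 3 h, where 69 of all tested genes were (0.399%). These 14 are 20.3% of the 69. Of the 66 genes on the lower side, 35 (53%) were past 2-fold lower at 3 h, where 239 genes were (1.38%), and the 35 are 14.6% of the 239. The 66 include 20 crygm2d copies, which are not counted as separate results, and the family sum was lower at 3 h too. The share of 53% therefore does not rest on independent genes, and a share without the family was not computed. Genes past 2-fold with the other sign at 3 h numbered 0 in each direction.

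A weaker criterion gave more genes. Of the 34 genes 23 had mutant libraries all above the wild type libraries at 3 h, beside 26.4% of all tested genes, and 0 had them all below. Of the 66 genes 51 had mutant libraries all below, beside 38.6% of all tested genes, and 2 had them all above, CELA1 (ENSDARG00000017314) and rock2bl. At 3 h limma called 18 of the 34 genes higher (4.41% of all tested genes) and 45 of the 66 lower (8.32%), all 20 crygm2d genes included. The median difference at 3 h was 0.82 for the 34 genes and -1.22 for the 66, beside -0.06 over all tested genes. Among the exceptions was the surface glycoprotein gene thy1, with 62.0 and 49.5 TPM in the untreated mutant and 144 and 109 TPM in the untreated wild type. At 3 h it had 84.6 and 71.3 TPM in the mutant and 76.8 and 70 TPM in the wild type.

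**Figure D5:**
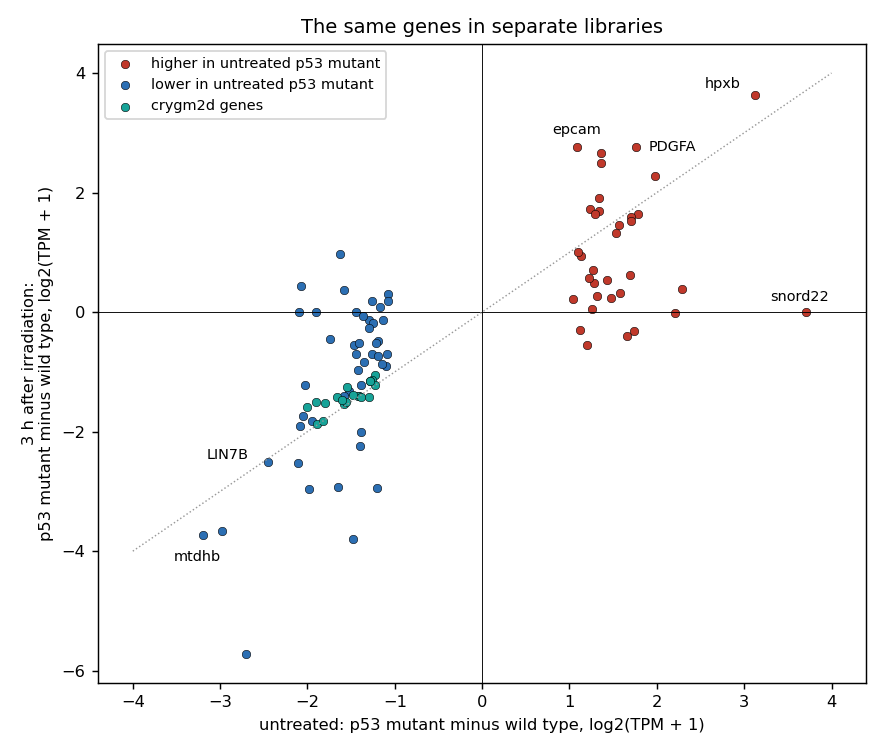
Mean difference between p53 mutant and wild type (log2(TPM + 1)) without radiation (horizontal axis) and 3 h after it (vertical axis) for the 100 genes past 2-fold in both untreated pairs; the dotted line marks equal differences. Points of hpxb, PDGFA, mtdhb, LIN7B and the crygm2d genes lie near or beyond the line, and snord22 lies at 0 after radiation.

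The same size rule set untreated PNP embryos, which keep p53, against the same wild type libraries. It gave 750 genes, 281 higher (1.63% of those tested) and 469 lower (2.71%) in PNP embryos, against 34 and 66 in the p53 mutant. With median-of-ratios scaling the PNP counts were 394 and 378. The 2 comparisons share the wild type libraries, and PNP embryos also differ from both wild type libraries in 5.8S content, listed at 0 in every PNP library. Pairing by number thus does not match kinds of library here, and replicate 1 alone gave 1112 genes and replicate 2 alone 5450. The genes tested were also chosen on the p53 mutant and wild type libraries, and with no filter 326 genes were higher in PNP embryos. The counts for PNP and for the p53 mutant are therefore not on the same footing.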

How the data were processed

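The authors deposited 1 table of TPM values per genotype, with columns that all added up to 1000000 within 1. Per the labels' protocols, poly(A)-selected libraries were sequenced in paired reads at 2 centres. GRCz11, RSEM 1.3.3, STAR 2.7.3a, R 4.3.3, DESeq2 1.42.1 and HTSeq 0.12.3 appear in the submitters' processing notes without a role. The number of columns left unmapped was 0. Symbols came from a gene name table, which named 28988 of 32057 genes, some in human style. Depth is unknown, and no counting interval was computed.

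On the log2(TPM + 1) scale, genes that reached 1 TPM in 2 or more of the 4 untreated libraries were fitted with limma 3.58.1 (trend) in R 4.3.3, with replicate number as a block, two-sided, and called at a Benjamini-Hochberg adjusted p under 0.05. The 3 h p53 mutant and wild type libraries, and the PNP libraries, were fitted without the block. The labels do not say what a replicate number marks. The block was used because the difference of replicate 1 and 2 correlated across genes between the genotypes at r = 0.641. On data simulated for the untreated comparison, with 17282 genes, 74% of genes shifted by 1 and 100% of those shifted by 2 were called. Of the unshifted genes 16 were called. The simulated spread came from the same fit, and only genes with a fitted level above 2 were shifted. These shares therefore do not hold for genes near the floor or for a wider spread. In the simulation 0 unshifted genes passed the 2-fold rule, while 15 genes of the data were past 2-fold with opposite signs.

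Members, lists and rules were chosen with earlier results of these data known. Named genes were p53 relatives, Mdm regulators, death and arrest targets and the title genes, whatever their values. To these were added, in each direction, the 10 genes with the largest smaller-of-the-pairs difference, 5 listed at 0 in a genotype, 5 more by adjusted p, and up to 4 past either rule in each list. Alternatives changed the block, pseudocount, filter, scaling, fold, libraries fitted and libraries left out. Reference sequences were not used here, and results for 2 genes that the rule named are not reported here.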

Additional observations from a re-analysis of the deposited data

Results flagged for a closer look

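The search covered only the named genes and those past 2-fold in both untreated pairs. Among these, 2 genes had every p53 mutant library below every wild type library without radiation and above it 3 h after radiation. Over all tested genes, 7.07% had the mutant libraries all below without radiation and 26.4% had them all above at 3 h. How many of all tested genes did both was not counted. The pancreatic elastase gene CELA1 (ENSDARG00000017314) had 7.58 and 3.47 TPM in the untreated mutant and 17.6 and 8.17 TPM in the untreated wild type. At 3 h it had 14.6 and 14.0 TPM in the mutant and 11.8 and 12.9 TPM in the wild type, a difference of 0.1929 on the log2(TPM + 1) scale. The gene rock2bl had 0.97 and 0.91 TPM in the untreated mutant and 3.15 and 7.06 TPM in the untreated wild type. At 3 h it had 1.82 and 2.75 TPM in the mutant and 1.28 and 1.81 TPM in the wild type, a difference of 0.3615. The change of sign was not tested for either gene, and neither was called at 3 h (limma adjusted p = 0.234 and 0.246).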

How the results depend on the processing

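The replicate block decides the number of calls. limma called 257 genes with it and 0 without the replicate block, and leaving out a library without the block gave 1 to 24, with 10 when p53 mutant replicate 1 was left out. Other settings gave 158 calls when the pseudocount was 0.1 TPM, 6 when no filter was applied, 146 with a minimum of 5 TPM, 122 (43 higher, 79 lower) after median-of-ratios scaling and 136 (44 and 92) without mitochondrially encoded transcripts. A fit with the 1 h p53 mutant libraries gave 51, and fits over all 18 libraries gave 76 without and 522 with a block on 6 of them. Under no filter 39 of the 44 called named genes lost their call, and the cause was not tested. Calls of h2ax, NDRG1 and mt-nd4l were also lost with the 0.1 TPM pseudocount and under both scalings, that of col17a1a with median-of-ratios scaling (adjusted p = 0.0563), and that of epcam without mitochondrially encoded transcripts (0.0536).

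The 2-fold counts do not need that error. The untreated count of 100 was 207 and 33 with pseudocounts of 0.1 and 5 TPM, 60 with the 5 TPM minimum, and 390 and 8 at 1.5-fold and 4-fold. The count of 49 also 2-fold at 3 h was 93 and 20 with those pseudocounts, and 145 and 5 at those folds. The 750 genes of PNP against wild type were 1359 and 310, and 2618 and 75. In PNP embryos the higher and lower split of 281 and 469 became 375 and 388 with quantile normalization. A single replicate pair gave 307 to 542, 90 to 106 and 1112 to 5450 genes for the 3 counts. The PNP radiation response had 2626 calls, 1548 with a replicate block, 1083 with no filter and 374 to 802 without 1 library. Its split was 941 and 1396 after scaling by median of ratios, and 953 and 1378 after quantile normalization.

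Named genes that changed sign were not called, except mt-nd4l. FBXW7 had 0.0023 with median-of-ratios scaling. Without replicate 1 the sign changed for TP73 (0.005) and cdkn1a (0.2971), while MDM4 (-0.227) and pmaip1 (0.8639) kept theirs. Without replicate 2 it changed for MDM4 (0.1387) and pmaip1 (-0.1451), while TP73 (-0.422) and cdkn1a (-0.394) kept theirs. Without p53 mutant replicate 1 and no block, TP73 had 0.2313, mdm2 0.3038, TP63 0.016, MDM4 0.1109, FBXW7 0.2444, mt-nd4l 0.3505 and cdkn1a 0.5716. Without wild type replicate 2 and no block, TP73 had 0.0178, mdm2 0.2048, foxo3b 0.1428, MDM4 0.2937, FBXW7 0.2393, mt-nd4l 0.4052 and cdkn1a 0.2261.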
